A study of Mus musculus with 16 samples.

Results

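The 9 mouse lung tumors labelled Max null were divided by their own level of Mycl1, the symbol the files use for Mycl, into 4 Mycl-high and 5 Mycl-low tumors, and the sets were compared across all other genes. The 9 are part of a series of 16 lung tumors, of which 7 are labelled Max wild-type. Level means counts per M reads in genes (CPM), and a tumor was Mycl-high at 90 CPM of Mycl1 or more. Mycl1 was therefore chosen by its measured value and is described but not tested. Both sets carry the genotype Max -/- in mice of the RP background, of strain 129/SvJ; C57BL/6, and in both gene deletion was started by Ad.CMV.Cre virus given through the trachea. The labels do not spell out the letters RP, a name commonly used for conditional Rb1 and Trp53 alleles. The CMV promoter is active in many cell types, so any infected airway or alveolar cell could have been the cell of origin, and age and sex are not among the labels. RNA was extracted with TRIZOL from tumor tissue, which can hold stromal and normal lung cells besides tumor cells, and libraries were made from total RNA with the New England BioLabs Ultra RNA kit. In such bulk samples, fewer cells of a type and less RNA per cell cannot be told apart. Whether each tumor had its own mouse is not in the labels, and the p-values cover the spread among these 9 samples, part of which may be technical.

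MYCL, MYC and MYCN are basic helix-loop-helix leucine zipper proteins that bind DNA at E-box motifs as heterodimers with MAX, and Mycl is the member amplified or highly expressed in many small cell lung cancers. Their targets include genes of ribosome production, nucleotide synthesis and cell division. MAX also pairs with MNT, MGA and the MXD family, mostly repressors at the same motifs, while MLX and its partners form a parallel branch. The comparison asks what goes with the level of Mycl when the partner through which it binds DNA has been deleted.

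Mycl1 measured 215.4, 137.8, 121.9 and 199.7 CPM in the Mycl-high null tumors 2, 3, 6 and 8, a mean of 168.7 ± 45.79 CPM (SD, n = 4). In the Mycl-low null tumors 1, 4, 5, 7 and 9 it measured 63.64, 25.01, 67.28, 49.09 and 40.63 CPM, a mean of 49.13 ± 17.28 CPM (SD, n = 5). The ratio of the means was 3.43, and the mean log2 levels differed by 1.82. The members nearest the dividing level were null tumor 6 just above it, at 121.9 CPM, and null tumor 5 just below it, at 67.28 CPM. The wild-type tumors reached further in both directions, from 17.49 to 2797 CPM with a median of 496.4 CPM, so that 6 of the 7 lay above the dividing level. Set by exon length, Mycl1 had the highest mean level of the MYC paralogs in both sets, at 41.8 ± 11.3 CPM per kb in Mycl-high and 12.2 ± 4.28 CPM per kb in Mycl-low tumors (SD). In null tumor 4 the order was reversed, with Mycn at 12 and Mycl1 at 6.19 CPM per kb.

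**Figure D1:**
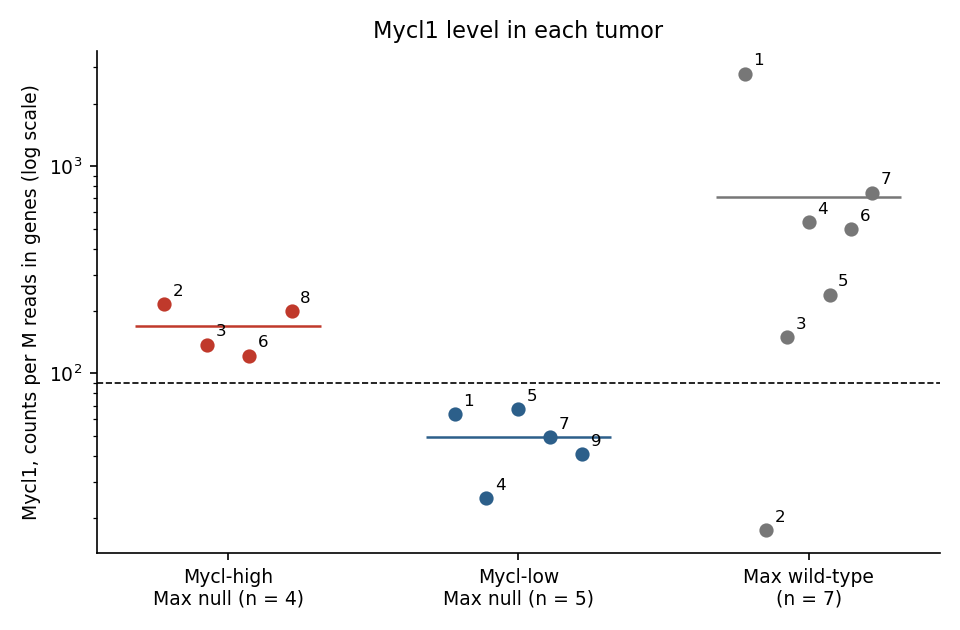
Mycl1 level (CPM, log scale) in each tumor, numbered as in the labels. Bars are means, and the dashed line is the level of 90 CPM that divides the Max null tumors. The 4 Mycl-high tumors lie between 121.9 and 215.4 CPM and the 5 Mycl-low tumors between 25.01 and 67.28 CPM. The level was used to form the sets.

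Promoter windows were searched for the canonical E-box CACGTG, which reads the same on both strands, because MAX heterodimers bind it. Windows are the RefSeq promoters of build GRCm38.p6, from 250 bases before to 50 after a gene's start. The reads were counted on mm9, so windows were matched by gene name alone. Of 32851 windows, 7.15% held the motif, and 8.09% of genes had it in at least 1 window. Windows were found for 78.5% of the genes tested, and the differences of genes with and without the motif were not compared. The share with the motif was not computed for the tested genes alone, so the count below has no matching background. Among the 10 named genes with the smallest p described below, 9 had a window and 3 of these held the motif: Gadd45g, Pfn2 and Ttc3. Their windows are shown with those of Mycl itself, which holds none, and of Mnt, a repressive partner of MAX. Mxi1, another repressive partner at a lower level in Mycl-high tumors, holds none in its 3 windows. Each is written 5′ to 3′ on the strand of its gene, with the motif in capitals. A match is a description of the letters, not a measured binding site, and a window without one says only that these letters are not in it.
Mycl (plus strand, chr4:122995681-122995980): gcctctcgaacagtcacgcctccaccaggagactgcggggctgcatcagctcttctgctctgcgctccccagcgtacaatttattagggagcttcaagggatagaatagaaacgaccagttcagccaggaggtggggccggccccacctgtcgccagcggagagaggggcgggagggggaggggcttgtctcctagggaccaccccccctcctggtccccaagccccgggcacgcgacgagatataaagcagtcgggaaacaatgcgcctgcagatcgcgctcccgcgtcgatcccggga
Gadd45g (plus strand, chr13:51846425-51846724): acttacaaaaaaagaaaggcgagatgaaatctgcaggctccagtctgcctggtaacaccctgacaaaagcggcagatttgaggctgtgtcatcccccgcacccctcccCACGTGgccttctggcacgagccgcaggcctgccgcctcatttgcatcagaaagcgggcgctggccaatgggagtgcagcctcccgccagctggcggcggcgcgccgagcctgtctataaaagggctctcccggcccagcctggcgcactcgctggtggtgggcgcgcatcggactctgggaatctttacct
Pfn2 (minus strand, chr3:57847708-57848007): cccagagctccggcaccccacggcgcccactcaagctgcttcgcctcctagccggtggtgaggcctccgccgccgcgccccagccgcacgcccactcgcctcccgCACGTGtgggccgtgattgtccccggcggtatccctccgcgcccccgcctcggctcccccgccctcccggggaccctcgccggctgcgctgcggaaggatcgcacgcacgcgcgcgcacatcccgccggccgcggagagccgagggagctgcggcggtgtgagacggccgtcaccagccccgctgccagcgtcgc
Ttc3 (plus strand, chr16:94370489-94370788): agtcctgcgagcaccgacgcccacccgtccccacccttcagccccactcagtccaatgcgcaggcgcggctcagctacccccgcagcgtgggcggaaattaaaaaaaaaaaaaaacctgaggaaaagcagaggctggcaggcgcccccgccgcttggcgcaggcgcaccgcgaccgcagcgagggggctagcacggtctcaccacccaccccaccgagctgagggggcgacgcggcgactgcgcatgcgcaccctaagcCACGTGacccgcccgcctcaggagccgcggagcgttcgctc
Mnt (plus strand, chr11:74830674-74830973): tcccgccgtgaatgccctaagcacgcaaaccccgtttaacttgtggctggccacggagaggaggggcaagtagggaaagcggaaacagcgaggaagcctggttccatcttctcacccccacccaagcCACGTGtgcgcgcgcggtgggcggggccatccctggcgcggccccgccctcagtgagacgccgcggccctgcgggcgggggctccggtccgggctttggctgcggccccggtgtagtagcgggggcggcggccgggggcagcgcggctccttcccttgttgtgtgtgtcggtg
The motif begins 142 bases before the annotated start in Gadd45g, 145 in Pfn2 and 123 in Mnt, and 9 bases after it in Ttc3. Gadd45g was at a higher level in Mycl-high tumors and Pfn2, Ttc3 and Mnt at lower ones, with the values and tests given below. The motif is also in windows, not shown, of Max, Mlx, Mlxipl and Mxd4. Their log2 levels differed by 0.01, -0.06, -0.11 and 0.19, Mycl-high minus Mycl-low.

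The null tumors had between 8.665 and 15.11 M reads in genes, with overlap between the sets. Null tumor 5, a Mycl-low tumor, stood apart from the other 8. On the first principal component, which held 31.9% of the variance, it was at 117.6 against -39.8 to 13.3 for the others, and its mean correlation with the other null tumors was 0.86 against 0.911 to 0.938. It had 81.8 CPM of the adhesion gene Cdh1 and 79.2 CPM of the keratin gene Krt8, where the other 8 had 935 to 1500 and 924 to 1650 CPM. The Y-linked gene Ddx3y passed 10 CPM in null tumors 4, 6 and 7, of which 6 was Mycl-high. The unprocessed rRNA gene Rn45s took 0.4075 ± 0.2597% of reads in genes in Mycl-high and 0.1597 ± 0.06727% in Mycl-low tumors (SD, n = 4 and 5; exact two-sided permutation p = 0.02381, adjusted over 6 library properties 0.1429). For the 5 other properties the adjusted p of this exact permutation test was between 0.3095 and 0.8175. Calca, for a peptide hormone of pulmonary neuroendocrine cells, measured 137 to 3430 CPM in the 9 tumors.

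Across all genes, 0 of 14911 tested (0%) passed an adjusted p of 0.05 between Mycl-high and Mycl-low tumors with edgeR's quasi-likelihood test, and the smallest adjusted p was 0.151, of an unnamed gene model. At an unadjusted p under 0.05, 1020 genes were higher (6.84%) and 835 lower (5.6%) in Mycl-high tumors. This balance moved with the scaling, to 1237 higher and 603 lower with upper-quartile factors and 972 and 903 with RLE factors. On CPM scaled by TMM factors, every Mycl-high tumor lay above every Mycl-low one in 358 genes (2.4%), and the reverse held in 253 (1.7%). DESeq2 called 308 genes on the same counts, 173 higher and 135 lower, and gave no adjusted p for 441. Voom called 0. The unadjusted counts leaned on null tumors 2 and 3. Without tumor 2 they were 653 higher and 542 lower, without tumor 3 they were 621 and 428, and without both they were 305 and 202. All differences below are Mycl-high minus Mycl-low on the log2 scale ± SE, and none of them passed the adjusted test in edgeR.

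The genes with the smallest p at a higher level in Mycl-high tumors were Aldh1a3, Gadd45g, Slc27a2, Cbfa2t3 and Bco2, and in each the sets did not overlap. Aldh1a3, an aldehyde dehydrogenase that makes retinoic acid, measured 62.8, 100, 98 and 92.1 CPM in Mycl-high tumors 2, 3, 6 and 8 and 36.4, 21, 27.2, 44.4 and 29.5 CPM in Mycl-low tumors 1, 4, 5, 7 and 9. The lowest Mycl-high tumor lay well above the highest Mycl-low one, and the difference was 1.46 ± 0.22 (edgeR adjusted p = 0.2003). Gadd45g, a stress-induced gene of growth arrest, measured 79.2, 97.9, 60.3 and 113 against 39.4, 27.3, 40.5, 33.3 and 35.7 CPM. Its 5 Mycl-low tumors lay close together, and the difference was 1.30 ± 0.20. Slc27a2, which activates and transports long fatty acids, measured 16.9, 11.2, 6.37 and 17.6 against 3.12, 2.78, 1.5, 1.43 and 2.78 CPM. Every Mycl-high tumor had more than the highest Mycl-low tumor, and the difference was 2.46 ± 0.39. Cbfa2t3, a transcriptional corepressor, measured 138, 102, 78.9 and 81.1 against 35.8, 49.7, 44.4, 39 and 35.7 CPM (difference 1.26 ± 0.20). Bco2, a carotenoid-cleaving enzyme, was low everywhere, at 2.52 to 4.15 against 0.377 to 0.926 CPM (difference 2.21 ± 0.36).

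At a lower level in Mycl-high tumors, the smallest p belonged to Pfn2, Mtap7d2, Lrp8, Ttc3 and Mllt11, again without overlap of the sets. Pfn2, a profilin that binds actin and is abundant in neurons, measured 51.3, 46.9, 70.9 and 53.5 CPM in Mycl-high tumors and 106, 121, 152, 135 and 146 CPM in Mycl-low ones. The gap between the sets ran from 70.9 to 106 CPM, and the difference was -1.27 ± 0.18 (edgeR adjusted p = 0.2003). Mtap7d2, of a family of microtubule-binding proteins, measured 30.9, 16.7, 30.4 and 29.4 against 138, 70.1, 96.9, 142 and 59.6 CPM (difference -1.92 ± 0.30). Lrp8, a receptor for reelin and apolipoprotein E, measured 18.5, 11.9, 29.8 and 30.2 against 71.9, 50.2, 94.1, 80.5 and 60.9 CPM. The highest Mycl-high value of each gene lay well below its lowest Mycl-low value, and the difference of Lrp8 was -1.68 ± 0.30. Ttc3, a ubiquitin ligase, measured 260, 265, 396 and 268 against 672, 495, 804, 514 and 631 CPM (difference -1.09 ± 0.20). Mllt11, first known as a fusion partner of MLL, measured 24.3 to 33.6 against 49.2 to 103 CPM (difference -1.34 ± 0.25). The edgeR adjusted p of all 10 genes was 0.2003 to 0.2402. DESeq2 gave 2.59e-07 to 0.00086 for them, while over their other alternatives the adjusted p ran from 0.0973 to 1. Without null tumors 2 and 3 the 5 higher genes were at 0.93 to 2.34 and the 5 lower ones at -1.78 to -0.95.

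**Figure D2:**
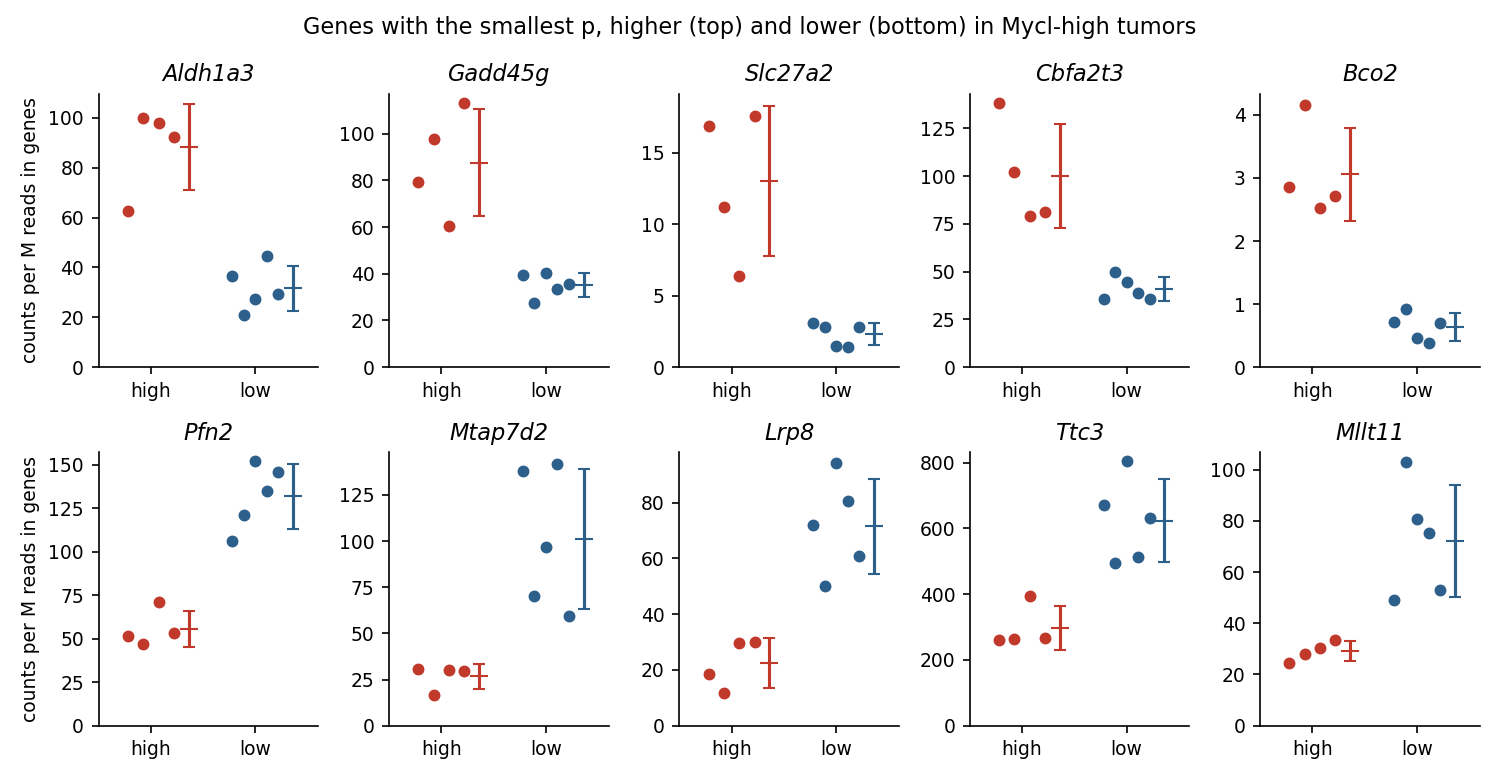
Levels (CPM) of the 5 named genes with the smallest p in each direction, 1 point per Max null tumor, Mycl-high left and Mycl-low right. Bars give the mean and SD (n = 4 and 5). In all 10 panels the sets do not overlap, while the edgeR adjusted p is 0.2003 to 0.2402. Tumor order within a set has no meaning.

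Taking the Mycl1 level as a number in place of the sets gave the same count. For a slope on log2 Mycl1 CPM over the 9 null tumors, 0 genes (0%) passed an edgeR adjusted p of 0.05, the smallest was 0.203, and 1669 genes (11.2%) had an unadjusted p under 0.05. Slopes are log2 per doubling of Mycl1 ± SE. Baiap2l2, which encodes a membrane-bending protein that binds actin, had the smallest p. It measured 113, 4.42, 4.89 and 50 CPM in Mycl-high tumors and 2.88, 0.662, 3.92, 1.73 and 1 CPM in Mycl-low ones. The high values were those of null tumors 2 and 8, with the most Mycl1, and the slope was 2.31 ± 0.29 (edgeR adjusted p = 0.2032). Gadd45g followed at 0.64 ± 0.10, then Fbxo32, a ubiquitin ligase subunit of muscle atrophy, at 0.45 ± 0.08, Serpina10, a protease inhibitor of coagulation, at 1.31 ± 0.23, and Pkib, an inhibitor of protein kinase A, at 0.55 ± 0.10. With negative slopes came Prkab2, a subunit of AMP-activated kinase, at -0.65 ± 0.10, the kinase inhibitor gene Camk2n2 at -0.50 ± 0.09, the phosphatase gene Dusp10 at -0.90 ± 0.16, Tfrc at -0.64 ± 0.11 and the ubiquitin ligase gene Trim32 at -0.52 ± 0.10. Tfrc, the transferrin receptor, is known as a target of MYC. It measured 104, 139, 174 and 156 CPM in Mycl-high and 205, 616, 156, 286 and 231 CPM in Mycl-low tumors, where null tumor 4, with the least Mycl1, was highest. Without null tumor 5, 2 genes passed, Cdc14b (0.75 ± 0.08) and Nfatc2 (0.61 ± 0.07), both at an edgeR adjusted p of 0.0432. With all 9 tumors their adjusted p was 0.308 and 0.284, and over 10 alternatives of the slope fit it ran to 0.629 and 0.632. These 2 were named after their values were seen.

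The slopes were also set against those in the 7 wild-type tumors. Of 14824 genes, 0 (0%) passed for a difference in slope (edgeR, smallest adjusted p 0.131), and 1324 (8.93%) had an unadjusted p under 0.05. Baiap2l2 had a slope of 2.31 in null but 0.21 in wild-type tumors, Pkib one of 0.55 and -0.10, and Mllt11 one of -0.64 and 0.06 (edgeR adjusted p of the differences 0.131 each). The meiotic cohesin gene Stag3 had the reverse pattern at the same adjusted p, with a slope of -0.04 in null and 1.15 in wild-type tumors. Without deletion of Max its level was near the floor, while each null tumor had 153 CPM or more. Wild-type tumor 1, with the most Mycl1, had 11.8 CPM of Stag3, and numbers 2 to 7 had 0.109 to 3.53 CPM. The lowest of these was number 2, with the least Mycl1. Whether such low levels or single tumors set the slope of Stag3 was not tested. Without the wild-type tumor with the most Mycl1, 1 gene passed, the neuronal gene Bex1, with a difference of -1.46 ± 0.19 (edgeR adjusted p = 0.0166), named after its value was seen. With all 16 tumors its difference was -1.21 at an edgeR adjusted p of 0.206, and 0.204 with another scaling.

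Among the 14 other genes of the MYC, MAX and MLX network, 0 were called, 0 were higher and 2 lower at an unadjusted p under 0.05, and the median difference was -0.07 against -0.03 over all genes. Without null tumors 1, 2 or 3 that median was -0.03, -0.13 and -0.04. Myc measured 4.99, 4.87, 4.66 and 7.31 CPM in Mycl-high and 4.72, 7.15, 8.54, 11.4 and 7.8 CPM in Mycl-low tumors (difference -0.56 ± 0.31, edgeR adjusted p = 0.4811). Mycn measured 1.43, 2.62, 9.18 and 2.15 against 2.96, 39.6, 18, 7.62 and 1.7 CPM. Its highest value was that of null tumor 4, with the least Mycl1, but null tumors 1, 7 and 9 lay among the Mycl-high values. The difference was -1.92 ± 0.94 (edgeR adjusted p = 0.4306), or -1.0 without null tumor 4. Per kb of exon, Myc was at 2.01 ± 0.456 and 2.91 ± 0.887 CPM and Mycn at 1.17 ± 1.09 and 4.24 ± 4.77 CPM in Mycl-high and Mycl-low tumors (SD).

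MAX and its repressive partners came next. Max itself measured 78.8, 86.1, 70.2 and 73.6 CPM in Mycl-high and 80.8, 77.6, 76.9, 79.2 and 64.5 CPM in Mycl-low tumors, a difference of 0.01 ± 0.13. Reads were counted over the entire gene, and the deleted part is not named in the labels, so this level is no check of the genotype. Rb1 (-0.02 ± 0.28) and Trp53 (-0.35 ± 0.20) likewise overlapped between the sets, and the signs of Max and Rb1 changed with another scaling. Mnt measured 85.5, 79.3, 107 and 86 CPM in Mycl-high and 109, 128, 101, 121 and 153 CPM in Mycl-low tumors. Its sets overlapped only through null tumors 5 and 6, those nearest the dividing level, and the difference was -0.48 ± 0.16 (edgeR adjusted p = 0.3359). Mxi1, an MXD protein, was at 74.2, 78.8, 114 and 101 against 125, 102, 195, 117 and 145 CPM (-0.60 ± 0.22, edgeR adjusted p = 0.3459). Mga, Mxd1, Mxd4 and Mxd3 were at -0.07 ± 0.21, 0.18 ± 0.18, 0.19 ± 0.28 and -0.66 ± 0.56 (the last -1.04 to -0.11 leaving out each null tumor in turn), and of the MLX branch Mlx was at -0.06 ± 0.20, Mlxip at -0.01 ± 0.16, with the opposite sign under another scaling, and Mlxipl at -0.11 ± 0.33. With the mean of club and alveolar type 2 markers as a covariate, the difference of Mnt was 0.03.

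Genes beside Mycl on chromosome 4 would share a gain of copies, so 26 neighbours were listed and 21 tested. Of these 0 were called, 2 were higher and 0 lower at an unadjusted p under 0.05, and their median difference was 0.04, or -0.02 to 0.17 when each null tumor in turn was left out. The nearest neighbours overlapped between the sets: Mfsd2a, a lipid transporter gene, at 0.36 ± 0.87 (-0.98 to 0.82 leaving out each null tumor in turn), Trit1, a tRNA-modifying enzyme gene, at 0.36 ± 0.24, Cap1, for an actin regulator, at 0.02 ± 0.18, and Ppt1, a lysosomal thioesterase gene, at 0.04 ± 0.21. Bmp8b, a growth factor gene 2 places away, measured 12.1, 2.89, 2.37 and 4.01 CPM in Mycl-high and 1.36, 0.529, 0.346, 0.603 and 4.71 CPM in Mycl-low tumors, and overlapped through null tumor 9. Its difference was the largest of these near neighbours, at 1.78 ± 0.80 (edgeR adjusted p = 0.4026), or 1.0 without null tumor 2 and 2.88 without null tumor 9. Rlf, a zinc finger gene, was at -0.37 ± 0.25, or -0.23 and -0.17 without null tumors 3 and 9. Cited4, for a transcriptional coactivator, lies further off, 20 genes away. It measured 46.8, 41.3, 10.8 and 30.2 CPM in Mycl-high and 8.33, 12.4, 1.38, 4.9 and 8.81 CPM in Mycl-low tumors. Its sets overlapped through null tumors 4 and 6 alone, and the difference was 2.14 ± 0.57 (edgeR adjusted p = 0.2856). The other at an unadjusted p under 0.05 was Oxct2b, 3 places away, at 0.198 to 1.83 CPM in the null tumors (1.19 ± 0.52, edgeR adjusted p = 0.3907). Its slope on Mycl1 was 0.71 in null tumors, and it was not in the wild-type fit. Trit1 had a slope on Mycl1 of 0.12 in null but 0.66 in wild-type tumors (edgeR adjusted p of the difference 0.4786), and Mfsd2a of 0.13 and 0.91 (edgeR adjusted p 0.5757). The slope of Bmp8b was above 0 in both, at 0.83 in null and 1.09 in wild-type tumors (edgeR adjusted p of the difference 0.8934).

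**Figure D3:**
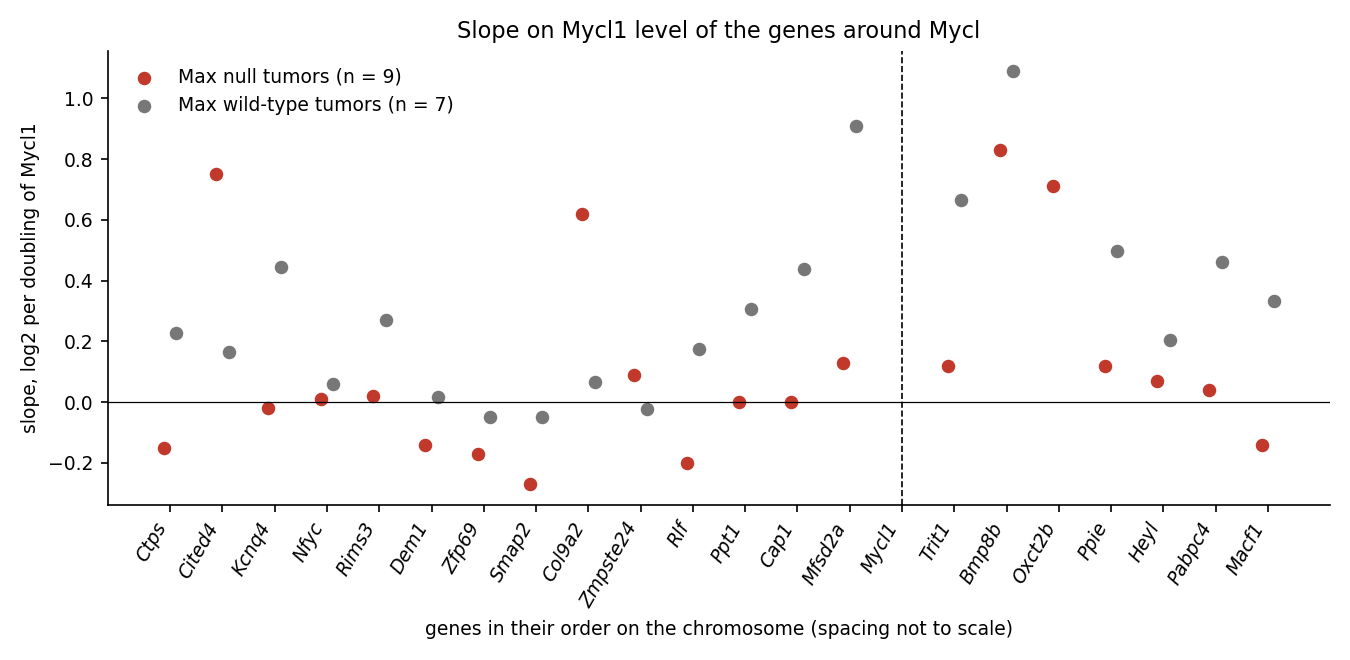
Slope on Mycl1 (log2 per doubling) of the tested genes around Mycl, in their order on chromosome 4, for the 9 Max null tumors (red) and the 7 Max wild-type tumors (grey). Next to Mycl1, Mfsd2a and Trit1 had slopes of 0.13 and 0.12 in null and 0.91 and 0.66 in wild-type tumors, differences that did not pass adjustment. Bmp8b, 2 places away, had slopes of 0.83 in null and 1.09 in wild-type tumors. Oxct2b was not in the wild-type fit.

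Genes of ribosome production, a class MYC proteins are known to activate, gave a median of -0.05 over 50 biogenesis factors (-0.07 to 0 leaving out each null tumor in turn), with 0 called and 3 higher and 0 lower at an unadjusted p under 0.05. Ncl and Npm1, the abundant nucleolar proteins, were at -0.19 ± 0.15 and -0.06 ± 0.18. For cytosolic ribosomal proteins, the median over 48 genes was 0.26, with 44 above 0, where 46.9% of all genes were. At an unadjusted p under 0.05, 12 were higher and 0 lower. Their summed level did not overlap between the sets, at 26530 to 34550 CPM in Mycl-high and 21540 to 26330 CPM in Mycl-low tumors. Null tumors 6 and 9 lay close to each other across that gap. Rpl4 measured 1560, 1450, 1250 and 1330 CPM in Mycl-high and 1050, 1230, 1070, 872 and 928 CPM in Mycl-low tumors (0.42 ± 0.16, edgeR adjusted p = 0.3596). Many of these genes have near-identical processed copies whose reads align to more than 1 place, so their levels are uncertain. Relative expression across genes correlated with exon length at -0.2409 to 0.005908 in Mycl-high and -0.03651 to 0.117 in Mycl-low tumors. Null tumor 3, with the lowest of these values, had the highest summed level of ribosomal protein genes (34550 CPM), and the part of length in their difference was not tested. The list's median was 0.17 without null tumor 3 and 0.11 without null tumors 2 and 3.

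DNA replication genes had differences below 0 in all 32 tested, where 53.1% of all genes did. Measured in the same 9 tumors, the 32 are not independent of each other. Summed over the list, the sets overlapped, at 2982 to 4052 CPM in Mycl-high and 3443 to 5582 CPM in Mycl-low tumors. The list's median difference was -0.38, with 0 called, 10 lower and 0 higher at an unadjusted p under 0.05. Mcm4, a subunit of the replicative helicase named after its value was seen, measured 100, 140, 148 and 135 CPM in Mycl-high and 186, 170, 194, 180 and 175 CPM in Mycl-low tumors. Its sets did not overlap, nor did those of Mcm2, another subunit, at 227 to 340 against 361 to 412 CPM. The differences were -0.49 ± 0.14 and -0.37 ± 0.15 (edgeR adjusted p = 0.296 and 0.3596). Pcna, the sliding clamp, was at -0.36 ± 0.24, or -0.22 without null tumor 5 and -0.55 without null tumor 6. The 36 mitosis genes were likewise all below 0, with a median of -0.58. At an unadjusted p under 0.05, however, 2 of the 36 were lower, where 5.6% of all genes were, and 0 higher. Their summed level overlapped as well, at 2464 to 6335 CPM in Mycl-high and 3285 to 10750 CPM in Mycl-low tumors. Mki67 measured 380, 310, 918 and 658 CPM in Mycl-high and 884, 476, 1790, 544 and 972 CPM in Mycl-low tumors (-0.75 ± 0.44), and Top2a lay at -0.78 ± 0.44. Without null tumor 5 they were at -0.35 and -0.38. The lowest Mki67 values were those of null tumors 2 and 3 and the highest that of null tumor 5. Without null tumor 5 the median of the mitosis list was -0.39, without null tumor 3 it was -0.37, and without null tumor 6 it was -0.88. Without both tumors 2 and 3 it was -0.19, where the replication list was at -0.31.

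In metabolism, the 23 sterol synthesis genes had a median of -0.45, with 0 called, 1 higher and 8 lower at an unadjusted p under 0.05. Cyp51, which demethylates lanosterol, measured 31.7, 30.7, 36.4 and 50 CPM in Mycl-high and 47.7, 84, 73.7, 97 and 68.3 CPM in Mycl-low tumors (-1.02 ± 0.24, edgeR adjusted p = 0.272). Fdps, for farnesyl diphosphate synthase, measured 68.8, 83.5, 81.2 and 94.5 against 113, 101, 119, 170 and 177 CPM (-0.75 ± 0.20, edgeR adjusted p = 0.286). Cyp51 overlapped through null tumors 1 and 8 and Fdps did not overlap, and both were named after their values were seen. Without null tumor 7 the sterol list was at -0.29. The 29 nucleotide synthesis genes had a median of -0.24, with 25 below 0, where 53.1% of all genes were. Measured in the same 9 tumors, they are not independent of each other. Their summed level did not overlap between the sets, at 3064 to 3307 CPM in Mycl-high and 3363 to 4321 CPM in Mycl-low tumors. Of the 29, 0 were called, and 0 were higher and 4 lower at an unadjusted p under 0.05. The 26 serine, glycine and one-carbon genes had a median of 0 (-0.06 to 0.03 leaving out each null tumor in turn), 0 called, 1 higher and 5 lower. The higher one was the glutamine transporter gene Slc1a5, at 205, 182, 189 and 222 against 117, 61.6, 72.7, 144 and 86.4 CPM (1.04 ± 0.22, edgeR adjusted p = 0.268). Aldh1l2, a mitochondrial folate enzyme gene, was at 26.6, 7.67, 26.7 and 18.6 against 37, 59.9, 57.9, 71.5 and 33.1 CPM (-1.41 ± 0.38, edgeR adjusted p = 0.286). Both were named after their values were seen. Glycolysis and hypoxia genes had 0 called, 1 higher and 1 lower of 31, and a median of -0.38 that was -0.15 without null tumor 2, -0.09 without null tumor 7 and 0.04 without null tumors 2 and 3. Pkm2 and Ldha, the last enzymes of lactate formation, were at -0.17 ± 0.33 and -0.19 ± 0.33.

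Of 51 neuroendocrine genes tested, 0 were called, and 2 were higher and 3 lower at an unadjusted p under 0.05. Differences were above 0 in 17 and below 0 in 34, where 53.1% of all genes were below 0. The list median was -0.16, or -0.26 without null tumor 1 and -0.05 without null tumor 4. Syn1, for a synaptic vesicle protein, measured 28.3 to 38.2 CPM in Mycl-high and 50.3 to 113 CPM in Mycl-low tumors (-1.07 ± 0.24, edgeR adjusted p = 0.268), and Kif5c, a neuronal kinesin gene, 42 to 72.9 against 70.9 to 214 CPM (-1.19 ± 0.30, edgeR adjusted p = 0.272). The list of 22 Notch pathway and YAP-related genes includes repressors of the neuroendocrine state. In it 0 were called, and 8 were higher and 0 lower at an unadjusted p under 0.05. The median was 0.46, with 16 above and 6 below 0, where 46.9% of all genes were above 0. The most abundant members, the YAP partner gene Tead1 and the ligand gene Jag2, were at -0.32 ± 0.24 and -0.04 ± 0.18. Leaving out each null tumor in turn gave -0.50 to -0.14 and -0.14 to 0.09. Also below 0 were the Notch target Hey1 at -0.68 ± 0.46, or -0.12 without null tumor 5, and the YAP targets Cyr61 at -0.16 ± 0.40 and Ankrd1 at -0.89 ± 0.93. With each null tumor left out in turn, Cyr61 ran from -0.48 to 0.04 and Ankrd1 from -1.73 to 0.48. Amotl2, a binding partner of YAP, had the smallest p. It measured 91.2, 89.2, 54.5 and 105 CPM in Mycl-high and 29.9, 33.1, 19, 40.3 and 19.9 CPM in Mycl-low tumors (1.56 ± 0.27, edgeR adjusted p = 0.207), without overlap. Notch1 measured 74.1, 41.9, 30.7 and 27 against 25.5, 19.2, 13.5, 19.9 and 13.6 CPM (1.23 ± 0.31, edgeR adjusted p = 0.272). The Notch ligand gene Dll4, which stood in the neuroendocrine list, measured 79.4, 54.3, 56.9 and 56.5 against 22.4, 33, 15, 41.5 and 14.9 CPM (1.26 ± 0.31, edgeR adjusted p = 0.272). Without null tumors 2 and 3, Amotl2 was at 1.46, Dll4 at 1.13 and Notch1 at 0.63, and the list median was 0.24. Syn1, Kif5c, Hey1, Cyr61, Ankrd1, Amotl2, Notch1 and Dll4 were named after their values were seen. Of 17 germline and meiosis genes, which include targets repressed by MGA and its complex, 0 were called, 0 higher and 3 lower, and Stag3 was at 153 to 257 against 171 to 245 CPM (-0.08 ± 0.19).

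Markers of normal lung epithelium stood highest in Mycl-high tumors. Among 12 club and secretory airway cell genes 0 were called, and 9 were higher and 0 lower at an unadjusted p under 0.05. The median was 1.57, with 10 above 0, where 46.9% of all genes were. Scgb1a1, the main secretory protein of club cells, measured 7020, 8740, 1170 and 528 CPM in Mycl-high and 2120, 998, 461, 240 and 407 CPM in Mycl-low tumors. Null tumors 2 and 3 carried the highest values, while 6 and 8 lay within the Mycl-low range, and the difference was 2.37 ± 0.86 (edgeR adjusted p = 0.3459) or -0.02 without tumors 2 and 3. Gabrp, an epithelial GABA receptor subunit gene named after its value was seen, did not overlap, at 100, 128, 73.6 and 53.7 against 42.4, 18.8, 16.8, 35 and 20.4 CPM (1.73 ± 0.32, edgeR adjusted p = 0.241). Summed over the list, the level was 1489 to 12640 CPM in Mycl-high and 644.3 to 3133 CPM in Mycl-low tumors, and 0 markers were at 0 in all tumors. Its median was 0.52 without null tumors 2 and 3.

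Of 13 alveolar type 2 cell genes, 0 were called, 9 were higher and 0 lower at an unadjusted p under 0.05, with a median of 1.01. Sftpb, a surfactant protein gene named after its value was seen, measured 738, 785, 410 and 358 CPM in Mycl-high and 376, 187, 200, 224 and 184 CPM in Mycl-low tumors, with an overlap through null tumors 1 and 8 that TMM scaling removed. Its difference was 1.28 ± 0.29 (edgeR adjusted p = 0.268). Sftpc, the most specific surfactant gene of these cells, measured 593, 1200, 278 and 678 against 420, 113, 559, 373 and 245 CPM (0.996 ± 0.476, edgeR adjusted p = 0.4212), or 0.58 without null tumor 3 and 0.46 without null tumors 2 and 3. The summed level was 2043 to 4443 CPM against 1029 to 2238 CPM. Alveolar type 1 genes had 4 of 10 higher and 0 lower (median 0.70), ciliated cell genes 2 of 16 higher and 0 lower (median 1.35, or 0.88 without null tumor 2 and -0.14 without tumors 2 and 3). Their examples Ager (188, 295, 119 and 84.6 against 135, 63.5, 83.8, 71 and 49.4 CPM) and Tppp3 (71.6, 89.7, 15.7 and 32.3 against 35.9, 21.3, 45.2, 11.3 and 7.72 CPM) overlapped between the sets.

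**Figure D4:**
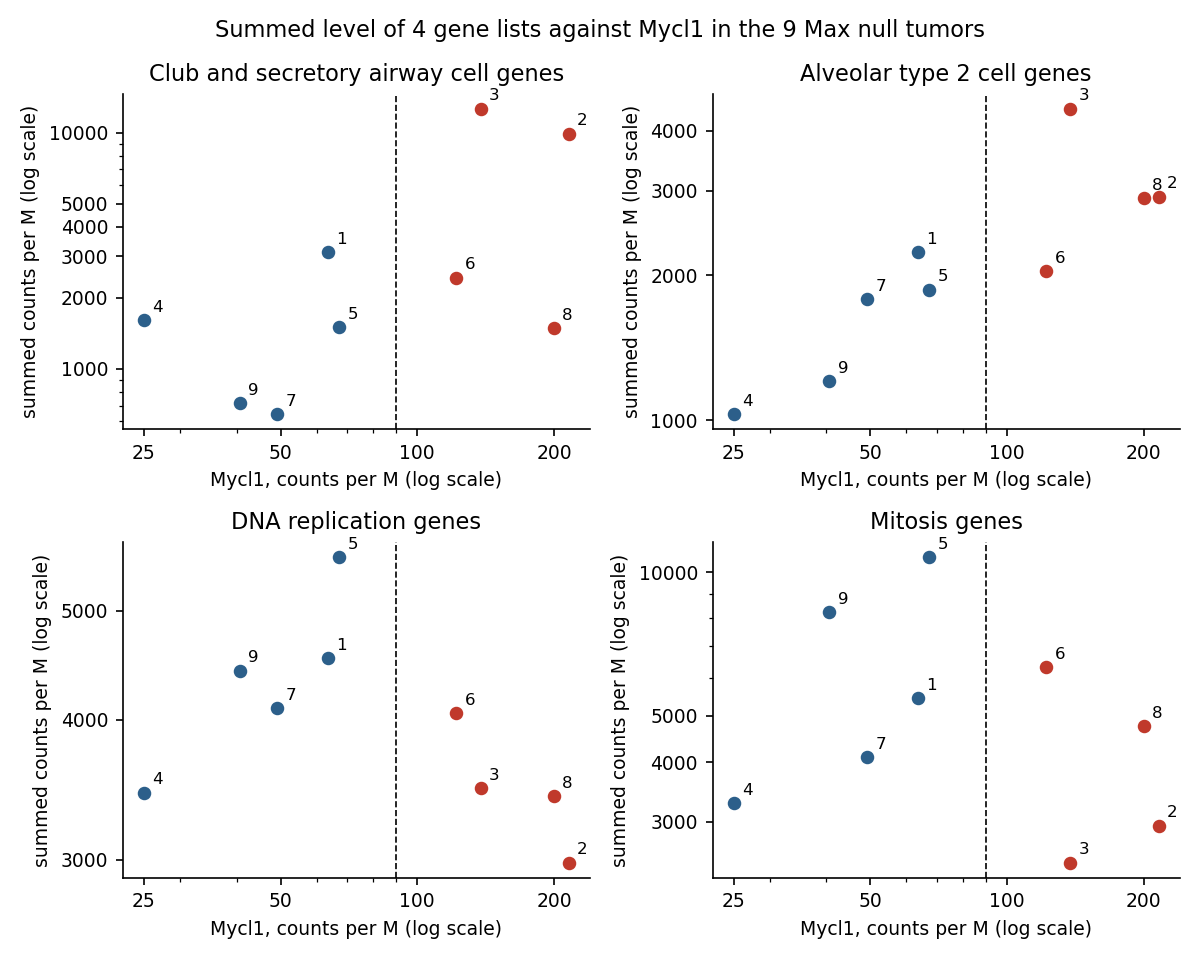
Summed level (CPM, log scale) of 4 gene lists against Mycl1 (CPM, log scale) in the 9 Max null tumors, numbered, Mycl-high in red and Mycl-low in blue. The dashed line is the dividing level. Club cell genes are highest in tumors 2 and 3 (9903 and 12640 CPM), and mitosis genes highest in tumor 5 (10750 CPM).

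Genes of vessels and blood cells were examined last. All 20 endothelial genes were above 0, where 46.9% of all genes were, with 0 called and a median of 0.45. At an unadjusted p under 0.05, 4 were higher and 0 lower. Summed over the list, the sets overlapped, at 595.8 to 1983 CPM in Mycl-high and 284.9 to 814 CPM in Mycl-low tumors. Kdr, the main VEGF receptor gene, measured 25.8, 21.6, 18.1 and 18.3 CPM in Mycl-high and 12.5, 10.7, 7.62, 12.6 and 9.27 CPM in Mycl-low tumors, without overlap (0.98 ± 0.21, edgeR adjusted p = 0.268, named after its value was seen). Pecam1 (0.37 ± 0.22, or 0.24 without null tumor 3) and Vwf (1.16 ± 0.58) overlapped. Vwf reached 1570 CPM in null tumor 2 and was at 0.48 without it. Without null tumors 2 and 3 the endothelial median was 0.20. Of 10 B and plasma cell genes 3 were higher and 0 lower, among them Cd74, the invariant chain of MHC class II, at 484 to 618 against 275 to 481 CPM (0.61 ± 0.20, edgeR adjusted p = 0.3242). With the mean of club and alveolar type 2 markers as a covariate, Cd74 was at 0.24. The median of this list was 0.66, or -0.19 with that covariate. Macrophage genes had 0 of 19 in either direction (median -0.08, or -0.38 to 0.05 leaving out each null tumor in turn) and fibroblast genes 1 higher and 0 lower of 19 (median -0.45, or -0.27, -0.19 and -0.28 without null tumors 5, 7 and 9), with Col3a1 at 103 to 228 against 85.1 to 519 CPM.

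**Figure D5:**
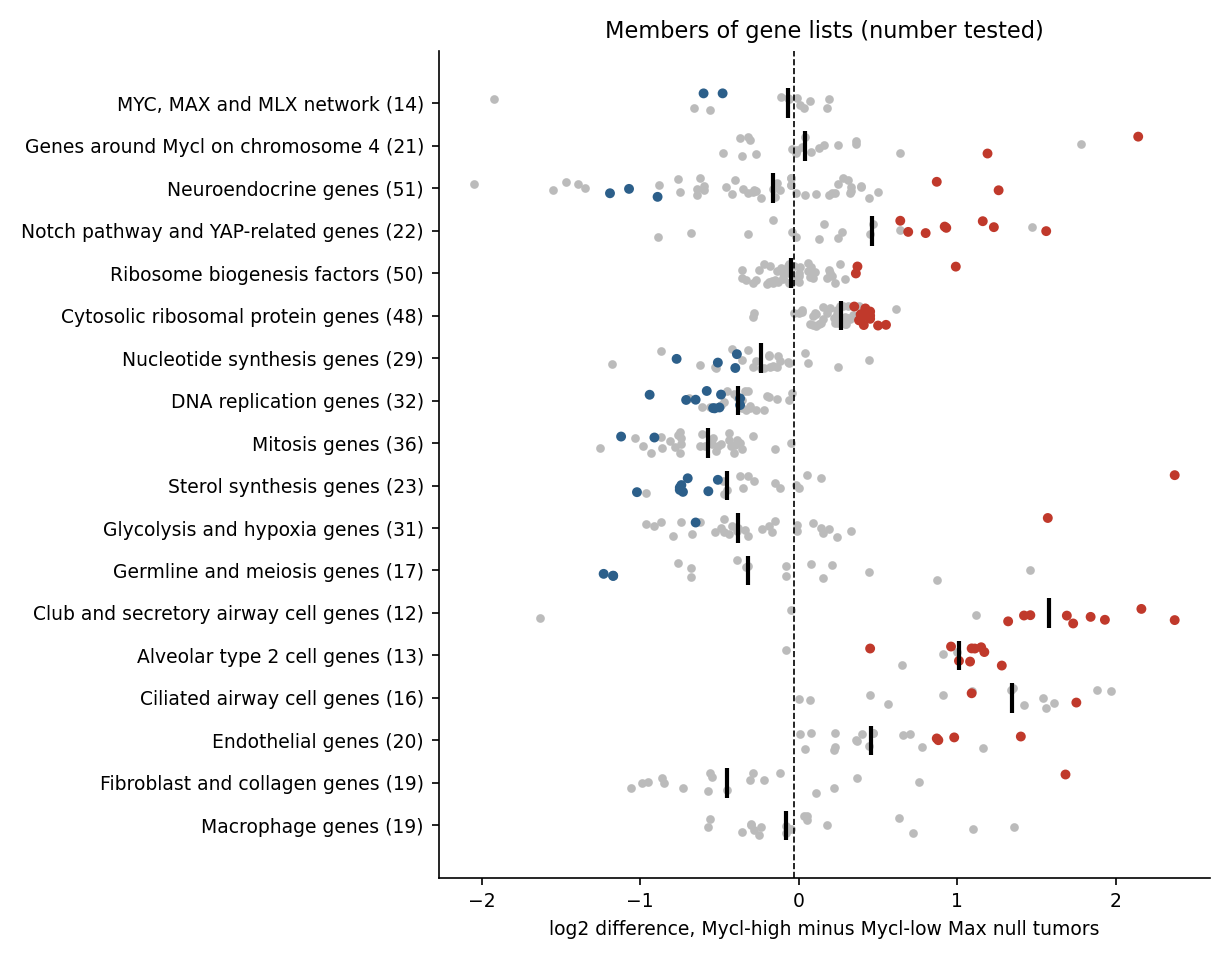
Log2 differences (Mycl-high minus Mycl-low) of the tested members of 18 gene lists, 1 point per gene, coloured where the unadjusted edgeR p is under 0.05 (red higher, blue lower). Black bars are list medians, and the dashed line is the median of all genes, -0.03. Club, ciliated and alveolar type 2 cell lists lie furthest right (medians 1.57, 1.35 and 1.01) and the mitosis list furthest left (-0.58). No gene passed the adjusted test.

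The other genes were set beside these markers in a fit with the mean log2 level of the club and alveolar type 2 lists as a covariate, in which 0 genes were called and 363 were higher and 646 lower at an unadjusted p under 0.05. In it the 5 higher genes with the smallest p were at 1.01 to 2.72 and the 5 lower ones at -2.12 to -1.04, Amotl2 at 1.44 and Slc1a5 at 1.02. The replication list was at -0.44 and the mitosis list at -0.24, against -0.38 and -0.58 without the covariate. The sterol list was at -0.16, the glycolysis and hypoxia list at 0.64, Notch1 at 0.69 and Prkab2 at -0.36. A second fit took the mean of the markers of other cell types as its covariate. These markers include the club and alveolar type 2 lists, so it was not a separate check. In it 0 genes were called, and the replication, mitosis, sterol, and glycolysis and hypoxia lists were at -0.47, -0.51, -0.29 and 0.43. There Amotl2 was at 1.45, Slc1a5 at 0.97, Notch1 at 0.95 and Prkab2 at -0.53.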

How the data were processed

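Expression was measured by RNA sequencing of total RNA from 9 tumors labelled Max null, with 7 labelled Max wild-type used for the difference in slope. As deposited, each file gives raw read counts for 23284 gene symbols. Build mm9 and the tools TopHat, TopHat2 2.0.12, HTSeq 0.6.1 and bcl2fastq 1.8.4 appear in the submitters' processing notes, with no role or order. Annotation, strand and filters were not given in the sources used here. Totals of reads outside single genes were left out of library sizes and of every test. In the null tumors they include 9.168% to 11.78% of reads that aligned to more than 1 place, and 17.88% to 20.28% that fell in no gene.

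The sets follow a level of 90 CPM of Mycl1, and Mycl1 was left out of all tests. The division, the named genes and the 36 gene lists were chosen with earlier results of these data known. Counts were tested with edgeR 4.0.16 in R 4.3.3 by its quasi-likelihood F test, with TMM factors and edgeR's filter on low counts, which kept 14911 genes. Adjusted p is Benjamini-Hochberg over all genes tested, the threshold 0.05, and the SE is the log2 difference divided by the square root of F. Levels are plain CPM. Library properties were compared by an exact permutation test over 126 arrangements. In all 36 pairs of null libraries the counts differed by far more than sampling noise (chi-square at least 34.5 per degree of freedom). The rule for named genes took the network and locus genes, the 5 smallest p in each direction of the sets and of the slope with a mean of at least 1 CPM, and the 2 most abundant members of each list without a call. Unnamed gene models were left out, and in the GRCm38 models no gene named by the rule overlapped another counted gene over 20% or more of its exons. Genes outside the rule are marked where named. 1 gene that the rule names is not reported here. The fit was tested on simulated data. Alternatives were other scalings, DESeq2 1.42.0, limma-voom 3.58.1 with sample weights, filters on low counts, other divisions, covariates and leaving out each tumor.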

Additional observations from a re-analysis of the deposited data

Results flagged for a closer look

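In 190 sets of 4 or 5 values, 1 for each named gene and set and for each library property, a single tumor lay far from the others of its set 19 times. For independent, normally distributed values this happens in about 1 in 20. The genes here share the same tumors and many were named for their values, so the 19 cannot be read as an excess. In Mycl-high tumors these were null tumor 8 for Myc (7.31 CPM), Mlx (51.8 CPM) and Mfsd2a (7.59 CPM), null tumor 6 for Mycn (9.18 CPM), Ttc3 (396 CPM) and Cdc14b (344 CPM), null tumor 2 for Bmp8b (12.1 CPM) and Dll4 (79.4 CPM), and null tumor 3 for Mtap7d2 (16.7 CPM). In Mycl-low tumors they were null tumor 1 for Mga (357 CPM) and Sftpb (376 CPM), null tumor 4 for Tfrc (616 CPM), null tumor 5 for Mlx (27.1 CPM), Ankrd1 (9.69 CPM) and the share of Rn45s (0.278% of reads in genes), null tumor 7 for Pkm2 (3170 CPM) and Syn1 (113 CPM), and null tumor 9 for Max (64.5 CPM) and Bmp8b (4.71 CPM).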

How the results depend on the processing

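Under 22 of 23 alternatives 0 genes were called between the sets, as in the main fit, and DESeq2 called 308. Leaving out each null tumor gave 0 called genes between the sets each time, and 0 to 2 for the slope on Mycl1. Without the wild-type tumor with the most Mycl1, 1 gene was called for a difference in slope, against 0. At an unadjusted p under 0.05 1020 genes were higher and 835 lower, against 418 and 809 with other cell type markers as a covariate, where lower genes were the majority, and 613 and 568 with all 16 tumors in 1 fit. For the 88 genes named in the text, 1872 of 2016 values under alternatives kept their direction and side of the threshold, 36 passed it, all with DESeq2, and 108 changed sign, in 28 genes, many of them with a difference within 1 SE of 0. The cause was not tested. With RLE factors it was Max (-0.01). With DESeq2 it was Max (-0.01). With no filter on low counts it was Max (-0.01). With the share of multiply aligned reads as a covariate the reversed values were Max (-0.03), Mlx (0.01), Mlxip (0.01), Pkm2 (0.07), Ldha (0.08), Jag2 (0.05) and Cyr61 (0.07). With other cell type markers as a covariate the reversed values were Max (-0.15), Mga (0.01), Mxd1 (-0.07), Mlx (0.28), Mlxip (0.23), Rlf (0.11), Npm1 (0.14), Pkm2 (0.16), Ldha (0.37), Stag3 (0.07), Sftpc (-0.46), Tppp3 (-0.63), Pecam1 (-0.03), Jag2 (0.10) and Cyr61 (0.30). With club and alveolar type 2 markers as a covariate the reversed values were Max (-0.25), Mnt (0.03), Mga (0.02), Mxd1 (-0.12), Mlx (0.36), Mlxip (0.29), Rlf (0.40), Npm1 (0.24), Pkm2 (0.44), Ldha (0.64), Stag3 (0.25), Scgb1a1 (-0.34), Sftpc (-0.48), Lyz2 (-0.04), Ager (-0.35), Tppp3 (-1.26), Mpeg1 (0.05) and Cyr61 (0.69). Without null tumors 2 and 3 the reversed values were Max (-0.11), Rb1 (0.02), Mxd1 (-0.03), Mlx (0.03), Npm1 (0.01), Pkm2 (0.15), Ldha (0.17), Stag3 (0.12), Scgb1a1 (-0.02), Tppp3 (-0.04) and Mpeg1 (0.24). With upper-quartile factors the reversed values were Rb1 (0.05), Mlxip (0.05) and Jag2 (0.02). With voom the reversed values were Rb1 (0.16), Mlxipl (0.14), Ppt1 (-0.03), Npm1 (0.01), Stag3 (0.04) and Ankrd1 (0.14). With the Mycl1 level in place of the sets the reversed values were Rb1 (0.17), Mga (0.02), Mxd4 (-0.03), Calca (0.05) and Mpeg1 (0.06). Without the tumors nearest the dividing level the reversed values were Rb1 (0.17), Mlxipl (0.08), Cap1 (-0.07), Ppt1 (-0.10) and Ankrd1 (0.75). With sex as a covariate it was Calca (0.05). The alternatives with sex, with club and alveolar type 2 markers and without tumors 2 and 3 were chosen after seeing the data, and Scgb1a1, Sftpc and Lyz2 are among those markers. The other cell type markers include the club and alveolar type 2 lists, and also Tppp3 and Pecam1. Leaving out each null tumor gave sign changes within these ranges: Max -0.05 to 0.06, Rb1 -0.14 to 0.29, Mga -0.23 to 0.09, Mlxip -0.09 to 0.07, Mlxipl -0.23 to 0.19, Mfsd2a -0.98 to 0.82, Cap1 -0.05 to 0.17, Ppt1 -0.09 to 0.16, Npm1 -0.16 to 0.04, Pkm2 -0.45 to 0.13, Ldha -0.50 to 0.03, Calca -0.44 to 0.29, Stag3 -0.21 to 0.03, Mpeg1 -0.27 to 0.05, Jag2 -0.14 to 0.09, Cyr61 -0.48 to 0.04 and Ankrd1 -1.73 to 0.48. For library properties, leaving out each tumor gave -1.36 to 0.351 M for reads in genes, -0.127 to 0.671 for the percent of reads in no gene and -0.00751 to 0.0282 for the percent in more than 1 gene. Between TMM, RLE and upper-quartile scaling the median of all genes was -0.04 to 0.03. No paired analysis was possible because each replicate number occurs once among the null tumors, so the sets share none. Counting error bears most on genes near 1 CPM, such as Bco2 and Oxct2b, at 8.665 to 15.11 M reads in genes.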
